A study of Mus musculus with 30 samples.

Results

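The regions described here are short stretches of open chromatin that appear in the peak list of type A spermatogonia (SG-A) and in no other list of the series. They were chosen from the 4 deposited ATAC-seq peak lists. Peaks on chromosomes 1 to 19 were merged into union regions wherever they overlapped by at least 1 bp, and a union region was kept if it was under 500 bp wide, overlapped an SG-A peak and overlapped no peak of the other 3 lists. This gave 48547 narrow SG-A-only regions out of 113894 union regions. Each of them consists of a single SG-A peak. A further 2601 SG-A-only regions were 500 bp wide or more and were not members. Over union regions of any width, 44.9% were listed only in SG-A, and among union regions under 500 bp the share was 54.7%. These shares are the background of the choice itself, and nothing is read from them.

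All cells came from testes of C57BL/6 mice. The SG-A list stands for 3 ATAC-seq libraries of type A spermatogonia at day 8 after birth. The list of primitive type A spermatogonia (PriSG-A) stands for 3 libraries at day 6, and the lists of pachytene spermatocytes (pacSC) and round spermatids (rST) for 2 libraries each from adults. No genetic alteration or treatment of the mice is named in the labels, and the protocols in the labels describe the collection of seminiferous tubules but no step that purified a cell type. All replicates of a stage share 1 list, so replicate error cannot be measured and stages are compared without p-values. How many reads lie behind a list is unknown. The 95% intervals below cover counting error only and treat neighbouring regions as independent.

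Type A spermatogonia are mitotic germ cells at the base of the seminiferous tubule. They include stem and progenitor cells and the first differentiating cells, which go on to divide and enter meiosis. ATAC-seq uses the transposase Tn5 to cut DNA that is not protected by nucleosomes, and a pile-up of cuts marks an accessible element. Promoters and strong enhancers usually give wide, tall peaks, while short, low peaks include weakly used elements, flanks of stronger ones and random background. The lists alone do not separate these kinds. Peak positions are given as deposited. They do not lie on mm10, the build named in the submitters' processing notes, so no gene could be assigned, and markers of the labelled cell types could not be examined.

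The 48547 regions made up 56.6% of the 85773 SG-A peaks on these chromosomes but 19.8% of the bases the list covers, 7.33 of 37.1 Mb. Their median width was 100 bp, with 5% at or under 58 bp and 5% at or over 379 bp. The narrowest spanned 26 bp. Their significance was low, with a median −log10 q of 2.35 against 6.55 for the 21613 SG-A peaks of 500 bp or more, called wide peaks below. The 15613 other SG-A peaks under 500 bp, all of which overlap a peak of another list, had a median −log10 q of 2.76 and a median width of 182 bp. Values of 3 or more were found for 16.1% of the narrow SG-A-only regions, 39.6% of the other narrow SG-A peaks and 96.7% of the wide peaks. Only 123 of the 48547 regions stood at 5 or more. These values entered the choice of the regions and are given as description.

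Within the set, the widest regions had the highest significance. The 20340 regions under 100 bp had a median −log10 q of 2.15, and 0.669% of them reached 3. Among the 5286 regions of 300 bp or more the median was 3.03, and 52.2% reached 3. The width limit cut through a continuous range. The 130 SG-A-only regions of 490 to 499 bp had a median −log10 q of 3.27, and the 126 of 500 to 509 bp had 3.29. Just inside the limit were regions of 499 bp on chr2:145762564-145763062 (−log10 q 4.14), chr3:33509276-33509774 (3.95) and chr4:115651986-115652484 (4.17). Just outside were regions of 500 bp on chr1:153342914-153343413 (2.76), chr2:152531726-152532225 (3.41) and chr3:65634705-65635204 (4.29).

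A single width stood out. Exactly 100 bp was the width of 4441 narrow SG-A-only regions, or 9.15% (95% interval 8.89 to 9.41), against 801 regions at the next most frequent width, 91 bp, and 258 at 101 bp. Widths of 80 to 99 bp took 22.1% of the regions and widths of 101 to 120 bp took 8.28%. The same width led in the other lists. It was held by 13.1% of narrow PriSG-A-only regions (12.5 to 13.6), 7.43% of narrow pacSC-only regions (6.99 to 7.90) and 6.63% of narrow rST-only regions (4.46 to 9.75). A step at 100 bp is therefore shared by all 4 lists and is not particular to SG-A. The sources used here do not state how peak edges were set.

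**Figure D1:**
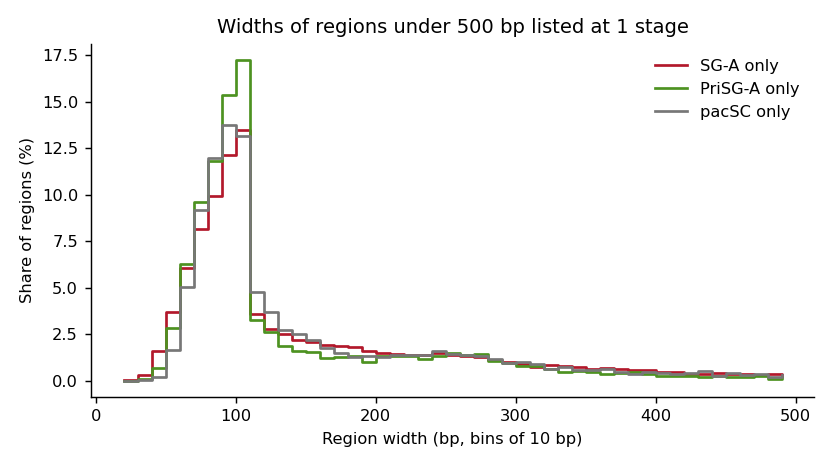
Share of regions (vertical axis, percent) in each 10 bp bin of width (horizontal axis) for regions under 500 bp listed only in SG-A, only in PriSG-A or only in pacSC. All 3 curves drop sharply above the bin that holds 100 bp, the width of 4441 SG-A-only regions.

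The regions of highest −log10 q lay mostly next to another SG-A peak. The leading one was on chr13:23618294-23618730 (437 bp, −log10 q 6.33), with another narrow SG-A-only region 111 bp away. The second, on chr6:47737788-47738230 (6.31), lay 122 bp from a wide SG-A peak of 645 bp that is also listed elsewhere. The next 2 were on chromosome 10, chr10:44771010-44771423 (6.28) and chr10:101590340-101590835 (6.10), which lay 119 and 106 bp from narrow SG-A-only regions. The fifth, on chr4:34882963-34883229 (6.06), was an exception among the first 10, with its nearest SG-A peak 17156 bp away. The remaining members of that group were on chr11:94840253-94840604 (5.96) and chr11:5385342-5385781 (5.72), chr15:80628794-80629112 (5.87), chr4:86532078-86532432 (5.81) and chr2:160423667-160424077 (5.71). Their nearest SG-A peaks were 102 to 172 bp away. Over all 48547 regions, 39.8% (39.4 to 40.2) had another SG-A peak within 200 bp. Among the 1096 regions whose −log10 q was 4 or higher the share was 56.4% (53.4 to 59.3).

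Narrow SG-A-only regions were crowded together. The median gap between neighbours was 13.6 kb (95% interval 13.3 to 14.0), and the mean gap was 49542 bp. Equal spacing of 48547 regions over the 2414 Mb between the first and last listed peaks would put one every 49.7 kb. The mean is set by density. Independent placement also gives a median below the mean, so the median alone does not measure crowding. Another region of the set lay within 200 bp of 25.2% of them (24.8 to 25.6), within 2 kb of 45.0% (44.5 to 45.4) and within 10 kb of 66.5% (66.1 to 66.9). Independent placement at each chromosome's own density, with gaps under 101 bp left out as in the lists, gives by formula 0.408%, 7.47% and 33.2%. By 50 kb the 2 values were close, at 90.4% and 86.6%. Crowding was therefore greatest at short range. It was not particular to the set. Gaps of up to 2 kb made up 26.0% of its neighbouring pairs, 37.9% in the whole SG-A list and 24.5% among narrow pacSC-only regions. The share was 15.8% for narrow PriSG-A-only regions, 10.6% for those listed in PriSG-A and SG-A only, and 9.27% for wide SG-A peaks. These sets differ in density, which was not equalized. The rule was also applied to peaks of −log10 q 3 or higher in all lists and gave 11905 narrow SG-A-only regions. Weaker peaks of the other lists were dropped as well, so some of the 11905 are not among the 48547. Of the 11905, 20.5% had another within 2 kb, and the median gap was 72.6 kb. Filtering the SG-A list alone in this way left 7810 regions, all among the 48547. On single chromosomes the share within 2 kb ran from 41.1% on chromosome 14 to 47.7% on chromosome 17.

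**Figure D2:**
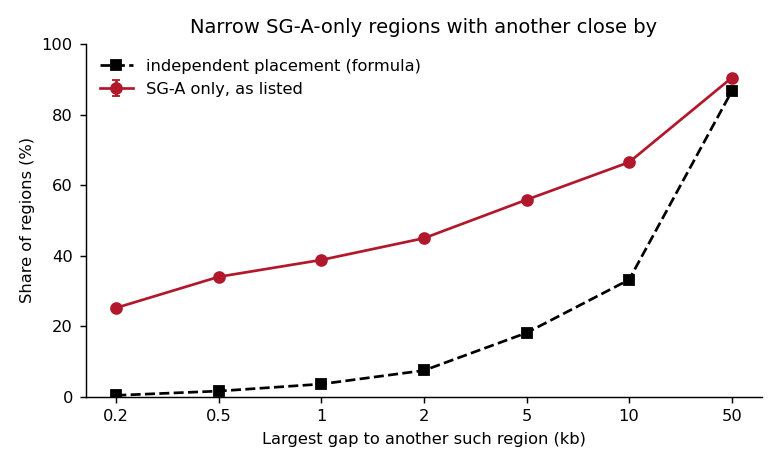
Share of narrow SG-A-only regions (vertical axis, percent) that have another such region within the gap on the horizontal axis (kb, steps not to scale), with 95% Wilson intervals smaller than the points. The dashed line is the share that independent placement gives by formula, with gaps under 101 bp left out. The listed share is 45.0% at 2 kb, against 7.47% by formula.

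The shortest gaps lay at the lower limit of the lists. No 2 peaks of a list were closer than 101 bp, and pairs were most frequent just above that value. Between neighbouring peaks that both belonged to the set, gaps of 101 to 109 bp occurred at 116 pairs per bp of gap, gaps of 150 to 159 bp at 52.3 and gaps of 400 to 499 bp at 4.47. Summits, the points of highest signal, of such neighbours were most often 200 to 249 bp apart (2150 pairs), then 250 to 299 bp (1823 pairs), and 805 pairs were 150 to 199 bp apart. Among 9816 pairs with summits under 1000 bp apart, 40.5% were 200 to 299 bp apart. In the PriSG-A list the same share, over 1897 pairs of narrow PriSG-A-only neighbours, was 42.4%. Gaps of up to 200 bp made up 13.4% of all neighbouring pairs in the SG-A-only set, 8.96% in the PriSG-A-only and 12.2% in the pacSC-only set, so short gaps occurred in each of these lists.

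**Figure D3:**
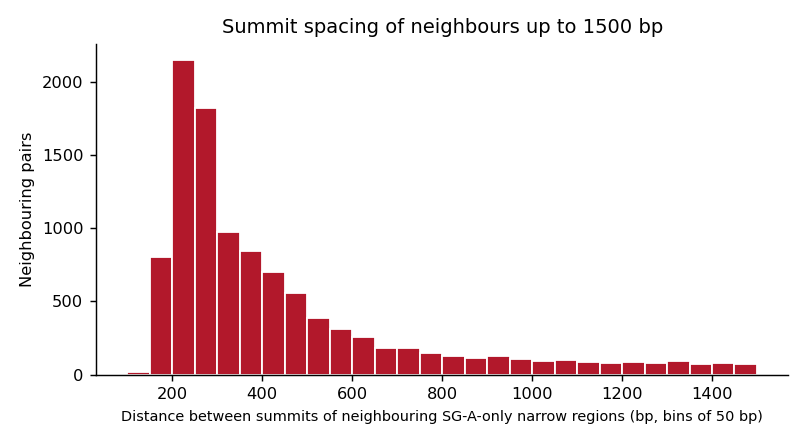
Number of neighbouring pairs of narrow SG-A-only regions (vertical axis) by the distance between their summits (horizontal axis, bp, bins of 50 bp). The highest bar, 200 to 249 bp, holds 2150 pairs, and counts fall beyond it.

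With a wider joining limit the set shrank. When peaks of each list were joined across gaps of up to 500 bp and the same rule was applied, 26155 narrow SG-A-only regions were left. Of the 48547, 60.2% then lay in a region that still met the rule, 15.9% lay in a joined SG-A-only region of 500 bp or more, and 23.9% had become part of a region also listed at another stage. The share with another region of the set within 2 kb was then 10.2%, and the median gap between neighbours 37.8 kb. Gaps of up to 500 bp are absent from the joined lists by construction.

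Runs of these regions were short. With neighbours linked across gaps of up to 2 kb, 26725 regions (55.0%) stood alone, 13796 (28.4%) were in pairs, 6562 (13.5%) in runs of 3 or 4, and 1464 (3.02%) in 258 runs of 5 or more. The longest run held 11 regions on chr7:19878415-19885273, a stretch of 6859 bp with 1 wide SG-A peak inside it and 6 inside it or within 10 kb. The next held 10 regions on chr9:78318402-78326014, with no wide peak inside and no peak of the other 3 lists. Runs of 9 lay on chr8:73237948-73244887 and chr8:126111321-126118107, and on chr9:40613448-40617478. The highest −log10 q among the narrow SG-A-only regions of each of these runs lay between 3.20 and 3.98. Wide peaks inside the runs stood higher where listed. The one in the longest run, chr7:19880950-19881822, had 5.73, and chr8:126116647-126117696, inside the second run on chromosome 8, had 4.85. The run on chr9:40613448-40617478 also held 1 wide peak.

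The set was concentrated beside wide SG-A peaks. The rule names no distance to wide peaks, but it acts on which regions beside them can be members: peaks of a list keep the smallest gap given above, and narrow SG-A peaks that overlap a peak of another list were left out. Of the 21613 wide SG-A peaks, 2601 were listed only in SG-A. The median gap from a narrow SG-A-only region to the nearest wide SG-A peak was 13.7 kb (13.3 to 14.0). Of the 48547 regions, 10.5% (10.3 to 10.8) lay within 200 bp of a wide peak, 19.9% (19.5 to 20.2) within 1 kb and 44.2% (43.8 to 44.6) within 10 kb. The zones within those distances hold 0.354%, 1.70% and 14.0% of the listed span outside wide peaks. Density was 64.4 regions per Mb within 10 kb of a wide peak and 13.2 beyond, a ratio of 4.88 (4.80 to 4.97). On single chromosomes the ratio ran from 4.20 on chromosome 11 to 5.99 on chromosome 7, so it was above 1 on each of the 19.

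Density fell with distance at every step. It was 604 regions per Mb within 200 bp of a wide peak, 202 at 200 to 500 bp, 104 at 500 to 1000 bp, 41.6 at 2 to 5 kb, 27.8 at 10 to 20 kb, 14.3 at 50 to 100 kb and 6.13 beyond 100 kb. Without the first 1 kb beside wide peaks the ratio at 10 kb was 3.06 (2.99 to 3.13). With peaks joined across gaps of up to 500 bp it was 2.91 (2.84 to 2.99). Both values were lower than 4.88 and above 1. Wide peaks of at least 1000 bp had 29.4% of the regions within 10 kb.

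Narrow regions of other kinds were less concentrated around the same wide SG-A peaks. The ratio at 10 kb was 2.96 (2.83 to 3.09) for the 9198 narrow regions listed in PriSG-A and SG-A only, 1.38 (1.33 to 1.44) for the 14432 listed only in PriSG-A and 1.02 (0.975 to 1.08) for the 12742 listed only in pacSC. Beyond 2 kb from a wide peak the PriSG-A-only regions stayed between 4.26 and 6.33 per Mb at all distances. Against wide peaks of their own list, the ratio was 1.76 (1.69 to 1.84) for PriSG-A-only and 3.31 (3.16 to 3.47) for pacSC-only regions. At 10 kb none of these intervals reached that of the narrow SG-A-only regions. At 1 kb this was not so: the ratio was 14.3 (14.0 to 14.7) for narrow SG-A-only regions and 14.5 (13.6 to 15.4) for pacSC-only regions against wide pacSC peaks. High density in the first 1 kb was therefore not particular to the SG-A list. Regions listed only in PriSG-A or only in pacSC overlap no SG-A peak by the choice, so the ground that SG-A peaks cover was closed to them. The lists also differ in length and in unknown depth. The part of each of these in the ratios was not tested. The SG-A list was also cut to the length of the PriSG-A list by keeping its peaks of highest −log10 q. Then 22152 narrow SG-A-only regions were left and the ratio was 5.11 (4.98 to 5.25). The cut list kept 21515 wide peaks, against 13996 in the PriSG-A list, so it does not imitate a shallower list.

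**Figure D4:**
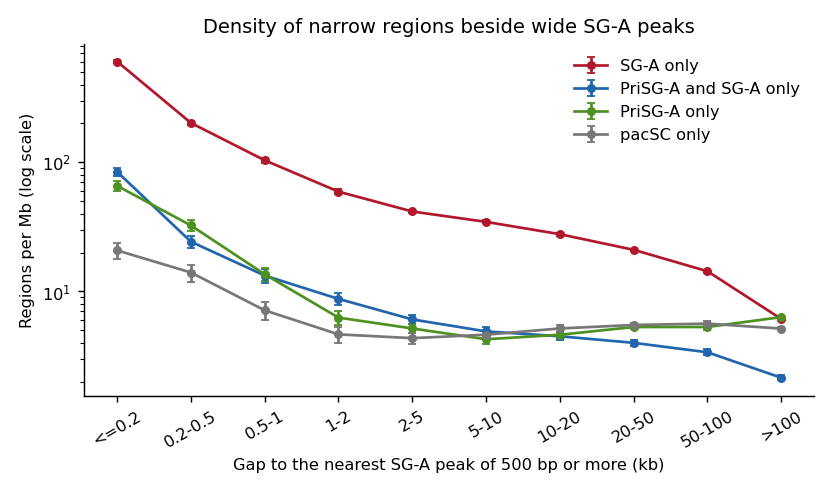
Regions per Mb (vertical axis, log scale) by gap to the nearest SG-A peak of 500 bp or more (horizontal axis, kb, steps not to scale) for 4 kinds of regions under 500 bp. Bars are 95% Poisson intervals. The SG-A-only regions fall from 604 per Mb within 200 bp to 6.13 per Mb beyond 100 kb, while the PriSG-A-only regions stay between 4.26 and 6.33 per Mb beyond 2 kb.

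Closeness varied little with the strength of the narrow region. Within 1 kb of a wide SG-A peak lay 19.1% (18.3 to 19.9) of the narrow SG-A-only regions with a −log10 q under 2 and 20.3% (18.1 to 22.8) of those at 4 or more, and these intervals overlap. Within 10 kb of a wide SG-A peak the shares were 42.6% (41.6 to 43.7) and 47.7% (44.8 to 50.7), higher in the stronger band. For narrow regions shared with PriSG-A alone the shares within 10 kb were 24.8% (22.0 to 28.0) and 38.3% (35.4 to 41.3), lower than in the SG-A-only set in both bands. Regions within 200 bp of a wide peak had a median width of 104 bp and a median −log10 q of 2.40, and those beyond 100 kb had 98 bp and 2.25. A −log10 q of 3 or higher was held by 17.6% of the 5110 nearest regions and by 12.1% of the 6258 most distant ones. Between these the share was 13.8% at 200 to 1000 bp, 17.4% at 1 to 10 kb and 16.7% at 10 to 100 kb. It therefore did not fall steadily with distance.

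The set was also denser beside wide peaks of other lists, by smaller ratios. Many of these peaks coincide with SG-A peaks, and the 2 kinds were not separated. Relative to the 13996 wide PriSG-A peaks, 28.5% of the narrow SG-A-only regions lay within 10 kb, in a zone that holds 10.1% of the span, a density ratio of 3.55 (3.48 to 3.62). Relative to the 7859 wide pacSC peaks, 14.0% lay within 10 kb, in 6.01% of the span, a ratio of 2.55 (2.49 to 2.62).

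From the side of the wide peaks, 7707 of 21613 (35.7%, 35.0 to 36.3) had at least 1 narrow SG-A-only region within 1 kb, and 13965 (64.6%, 64.0 to 65.2) had one within 10 kb. The mean number within 10 kb was 1.50. Among the larger classes, wide peaks that were themselves listed only in SG-A led, with 74.5% (72.8 to 76.1) having one within 10 kb and a mean of 2.01. Wide peaks shared with PriSG-A alone followed, at 68.3% (67.2 to 69.3) and 1.70. The 7929 shared with pacSC but not listed at all 4 stages had 59.9% (58.8 to 61.0) and 1.26. Those open at all 4 stages had 58.0% (56.2 to 59.8) and 1.14. The rule used the same stage listing, since it leaves out narrow SG-A peaks that overlap a peak of another list, so this order is a description. The smaller class of 106 wide peaks shared with rST and not pacSC had 83.0% (74.7 to 89.0) and 2.02 at 10 kb. At 1 kb its share was the lowest of these stage classes, 24.5% (17.3 to 33.5). At 10 kb the mean number did not change steadily with the width of the wide peak. It was between 1.39 and 1.56 in each of 4 classes of width. At 1 kb the share with a narrow SG-A-only region rose with each class of width. That share was 33.8% (32.6 to 35.1) for wide peaks of 500 to 723 bp. For wide peaks of 1521 bp or more it was 38.3% (37.0 to 39.6). The most crowded wide peak was on chr8:126116647-126117696 (1050 bp), with 15 regions within 10 kb. Next came chr7:19880950-19881822 and chr8:126118288-126119379 and chr8:126120033-126120864, with 14 each, and chr4:146725548-146726250, with 13. All 5 were listed in PriSG-A and SG-A only, and those on chromosome 8 share part of their 10 kb zones.

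In the order of SG-A peaks along a chromosome, 35.3% (34.9 to 35.8) of the narrow SG-A-only regions had another of their kind on both sides, 30.6% (30.1 to 31.0) had one of their kind and a wide peak, and 7.39% (7.16 to 7.62) had wide peaks on both sides. The remote regions were few. No other SG-A peak lay within 100 kb of 680 regions, or 1.40% (1.30 to 1.51). The most remote were on chr6:75587202-75587422, 860 kb from the nearest SG-A peak, and chr6:76447171-76447415, 723 kb away. The second of these lay 80 bp from a peak of another list, so remoteness within the SG-A list did not mean that no other stage had a peak nearby. The other three were on chr19:49390818-49390877 (714 kb), chr8:45285850-45285923 (604 kb) and chr7:21200744-21200841 (537 kb).

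None of the regions overlapped a peak of another list, but part of them lay close to one. A PriSG-A peak lay within 200 bp of 10.1% (9.87 to 10.4) and within 500 bp of 20.3% (19.9 to 20.6). A pacSC peak lay within 500 bp of 5.74% (5.54 to 5.96) and an rST peak of 0.402% (0.349 to 0.462). The median distance was 6.88 kb to the PriSG-A list, 23.3 kb to the pacSC list and 170 kb to the rST list, in the order of the lists' lengths. Of the 9845 regions with a PriSG-A peak within 500 bp, 79.6% (78.8 to 80.4) were next to a PriSG-A peak that itself overlapped an SG-A peak, and 16.7% (16.0 to 17.4) were next to one that overlapped none. For scale, the PriSG-A list held 54413 peaks, and 14432 narrow regions were listed only in it. The share over all PriSG-A peaks and the share of the span within these distances are not given. Nothing is therefore read from the shares in this paragraph. In 50.5% (49.5 to 51.5) of the 9845 a wide SG-A peak was also within 500 bp. No peak of the other 3 lists lay within 10 kb of 18543 regions (38.2%, 37.8 to 38.6).

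Across the genome the set followed the density of wide SG-A peaks. Chromosome 14 had 15.5 narrow SG-A-only regions per Mb and 6.78 wide peaks per Mb, the lowest of both, and chromosome 11 had 24.6 and 12.7, the highest of both. Over the 19 chromosomes Pearson's r between the 2 densities was 0.895 and Spearman's rho 0.858. For narrow PriSG-A-only regions, which overlap no SG-A peak by the choice, rho with the density of narrow SG-A-only regions was −0.111. These values are descriptive, because chromosomes share the same libraries and can differ together in gene content and base composition. Per wide peak the number of narrow SG-A-only regions varied less, from 1.88 on chromosome 7 to 2.60 on chromosome 10.

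**Figure D5:**
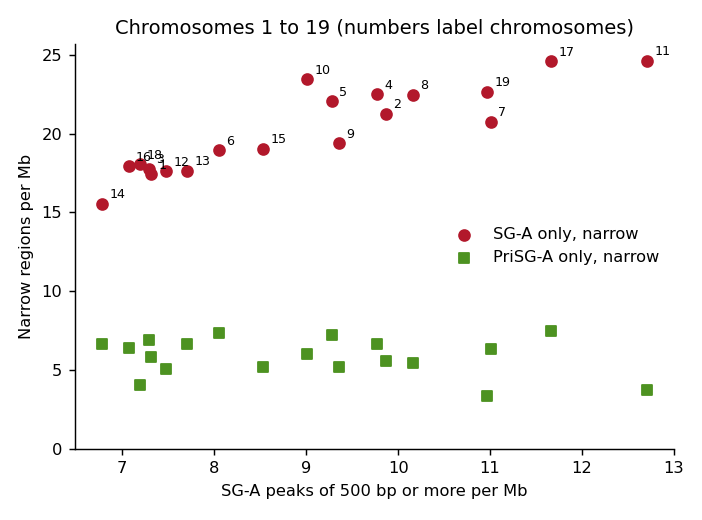
Narrow regions per Mb (vertical axis) against SG-A peaks of 500 bp or more per Mb (horizontal axis), 1 point per chromosome. Circles, labelled by chromosome, are the SG-A-only regions, which run from 15.5 on chromosome 14 to 24.6 on chromosome 11. Squares are PriSG-A-only regions.

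The 2426 windows of 1 Mb gave the same relation. Their median was 16 narrow SG-A-only regions (25th percentile 7, 75th percentile 29), and 39 windows had none. The 240 windows without a wide SG-A peak had a median of 3.5 regions and at most 21, and the 241 windows with 21 or more wide peaks had a median of 48. Narrow PriSG-A-only regions had medians of 5 and 4 in those same windows, and narrow pacSC-only regions of 2 and 1. Spearman's rho over windows, again a description, was 0.855 with wide SG-A peaks, 0.448 with narrow regions shared by PriSG-A and SG-A alone, −0.127 with PriSG-A-only and −0.0539 with pacSC-only narrow regions. The PriSG-A-only and pacSC-only sets overlap no SG-A peak by the choice. Over windows they were not set against wide peaks of their own lists, so these values do not compare like with like. The highest counts were on chr10:80000001-81000000 (164 regions beside 81 wide peaks) and chr10:79000001-80000000 (152 beside 76). In this block narrow PriSG-A-only regions numbered 6 and 5 and pacSC-only regions 0. The window chr7:52000001-53000000 held 108 regions, chr8:73000001-74000000 held 102, and chr10:126000001-127000000 held 95. The highest 5% of windows together held 16.5% of the set.

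In mouse, the centromere of each autosome is at the start of its coordinates. In the last 10 Mb of the listed span at the distal end, narrow SG-A-only regions stood at 26.5 per Mb against 19.6 elsewhere, a ratio of 1.35 (1.31 to 1.39), and wide SG-A peaks had a ratio of 1.39 (1.33 to 1.46). In the last 1 Mb they parted. The ratio was 0.847 (0.759 to 0.945) for the narrow SG-A-only regions and 1.44 (1.27 to 1.63) for the wide peaks. The narrow pacSC-only regions, at 9.995 (9.35 to 10.7), were far denser there. In the first 10 Mb at the centromeric end the narrow SG-A-only regions had a ratio of 0.875 (0.845 to 0.906), and the narrow PriSG-A-only regions one of 1.77 (1.69 to 1.86). In the first 2 Mb the ratio of the narrow SG-A-only regions was slightly above 1, at 1.09 (1.02 to 1.17). In the first 1 Mb it was 1.06 (0.964 to 1.17), an interval that includes 1. For wide SG-A peaks the ratios in the first 2 Mb and 1 Mb were 1.61 (1.48 to 1.76) and 1.59 (1.41 to 1.79).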

How the data were processed

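ATAC-seq peak lists were analysed, 1 per stage, which the labels of all replicates of that stage name. The deposited name of the PriSG-A list is garbled, so it was identified by its labels and as the only list left over. The submitters' processing notes list Bowtie2 2.2.5, Bowtie, SAMtools and mm10 but no role for any. The sources used here do not give the peak caller, its settings, any Tn5 shift or how replicates were pooled. Each deposited peak has a score, a signal value, a −log10 p and a −log10 q of the authors' caller, and a summit offset. The −log10 p columns, 4 in all, were not used. For 100% of peaks the score was, within a tolerance of 1, the signal value divided by the width and multiplied by 1000, with a cap of 1000, so the deposited signal value is an area that grows with width. The lowest signal value was 20.0. Peaks ran past the last RefSeq gene of GRCm38 on 10 of the 19 chromosomes (most on chromosome 7, 7.20 Mb), so the positions are not on mm10. No genome sequence of the files' assembly was used, no coordinates were converted, and no sequence is printed. Positions are 1-based.

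The lists were compared in Python 3.11.15 with pandas 2.3.3 and numpy 2.4.6. Gaps are the bases between region edges. Zone lengths were counted base by base over the span from the first to the last peak of the 4 lists on a chromosome. Shares have 95% Wilson intervals, density ratios 95% Poisson intervals on the log scale, and medians 95% order-statistic intervals. The functions were tested on simulated intervals. The regions, distances and comparisons were chosen with earlier results of these data known. Named regions follow a rule: the 10 of highest −log10 q, the 5 longest runs (gaps up to 2 kb), the 5 fullest 1 Mb windows, the 5 wide SG-A peaks with most regions within 10 kb, the 5 regions farthest from any other SG-A peak, and 3 on each side of the width limit. Hi-C, ChIP-seq and input samples were not analysed here.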

Additional observations from a re-analysis of the deposited data

Results flagged for a closer look

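Chromosomes X and Y lay outside the rule, and both held regions of the same kind. X had 895 regions under 500 bp listed only in SG-A, or 5.47 per Mb against 20.1 per Mb on chromosomes 1 to 19, a ratio of 0.272 (95% Poisson interval 0.255 to 0.291). Wide SG-A peaks were also sparser on X, with 798 over 163.6 Mb against 21613 over 2414 Mb. How many reads lay on X and on the autosomes is unknown, so the ratio is a description. Of the X regions, 46.4% (43.1 to 49.6) lay within 10 kb of a wide SG-A peak. The share of the X span in that zone is not given, so nothing is read from this value. Y had 26 such regions, of which 11 lay within 10 kb of a wide SG-A peak. Both counts exceed the limit that a count of 0 allows, which is 3.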

How the results depend on the processing

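Recomputing 5 quantities, each under some of the alternatives, gave 37 values. Of these, 5 were numbers of regions within 1.5 times 48547, 32 moved beyond the main interval or that limit, and 0 changed direction. A change of direction was defined only for the density ratio, as a value on the other side of 1. Counts, shares and median gaps could not show one. Why values moved was not tested, and filtered, shortened or joined lists hold fewer peaks by construction. Depth, which is unknown, limits every count. No paired analysis was possible because replicates of a stage share a single list, and for the same reason none could be left out. Joining and omitting the first 1 kb were chosen after seeing the data.

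The number of narrow SG-A-only regions was 11905 for −log10 q of 3 or higher in all lists, 7810 for that filter in the SG-A list alone, 22152 at equal list length and 26155 after joining at 500 bp. The set of 11905 includes regions outside the 48547. The share within 10 kb of a wide peak was 41.9%, 45.0%, 45.2% and 37.5% in those settings, 38.6% with the other lists widened by 500 bp, and 29.4% for wide peaks of 1000 bp or more. Shares within 5 and 20 kb were 33.5% and 57.6%. The density ratio was 4.58, 5.18, 5.11 and 2.91 in the first 4 settings, 3.87 with widened lists, 4.34 with wide peaks of 1000 bp or more, 6.06 at 5 kb, 4.36 at 20 kb, 4.65 without the densest 5% of windows and 3.06 without the first 1 kb. The median gap was 72621.5 bp for −log10 q of 3 or higher in all lists, 17041 bp with widened lists, 16501.5 and 12433 bp with width limits of 300 and 1000 bp, and 37822.5 bp after joining. The share with another region within 2 kb was 20.5% for −log10 q of 3 or higher in all lists, 43.1% without the densest windows and 10.2% after joining, and 38.8% and 55.8% at 1 and 5 kb.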

Other observations

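The −log10 q of the narrow SG-A-only regions took few values. The 48547 regions shared 2365 distinct values, and the most common, 2.11, was held by 1327 regions. The 20 most common values covered 30.5% of the regions, against 2.49% for the 20 most common among wide SG-A peaks, which had 10155 distinct values. Differences of a few hundredths between single regions therefore often separate ties or neighbouring steps. The summit lay in the middle 60% of the width in 77.6% of the regions.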
